A study of Mus musculus with 24 samples.

Results

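The effect of losing Smchd1 in mouse embryonic stem (ES) cells was measured in cells that carry the Tet genes and in cells that lack them, and both effects were compared gene by gene. The first effect is Smchd1 KO minus WT, and the second is quad KO minus Tet TKO, where quad KO lacks Tet1, Tet2, Tet3 and Smchd1 and Tet TKO lacks the 3 Tet genes. Smchd1 KO and WT therefore both carry Tet genes, and both groups of the second effect share the loss of all 3. The comparison uses 18 of the 24 libraries of the series, which are 12 biological samples, 3 of each genotype. Each WT and Smchd1 KO sample was sequenced in 2 technical runs that were averaged. Of 37310 gene entries, 15967 had at least 0.5 CPM (reads scaled to a common effective library size) in at least 3 samples of 1 table and were tested. All lines were grown without feeder cells in serum and LIF, a cytokine that maintains ES cells, and RNA depleted of ribosomal RNA was sequenced. How the lines were derived, and whether each is 1 clone, is not given in the sources used here.

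SMCHD1 is a chromatin protein related to the SMC family, best known for keeping genes silent on the inactive X chromosome, at imprinted loci and in gene clusters. The TET enzymes oxidise 5-methylcytosine, which is a route to the removal of DNA methylation. Many germ cell genes have CpG-rich promoters that are silenced by methylation in somatic cells, while genes of the 2-cell embryo are switched on in a small share of ES cells by the homeobox factor DUX.

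A gene is said to have risen or fallen where limma gave a Benjamini-Hochberg adjusted p under 0.05 and the difference in log2(CPM + 0.5) was at least 1. Because of the added 0.5, these differences understate the change of genes with few reads. With Tet genes, loss of Smchd1 changed 434 genes (2.72%), of which 357 rose (2.24%) and 77 fell (0.482%). Without Tet genes it changed 676 (4.23%), of which 203 rose (1.27%) and 473 fell (2.96%). Just inside and just outside the size limit lay Gpatch4 and Hal with Tet genes, with differences of 1.0002 and 0.9994 in size, and Krt7 and Sulf1 without, with 1.0001 and 0.9999. Of the changed genes, 21 (0.132% of those tested) moved the same way in both backgrounds and 40 (0.251%) moved in opposite ways. The 21 are 4.84% of the genes changed with Tet genes and 3.11% of those changed without, and the 40 are 9.22% and 5.92%. Of the 40, 38 rose with Tet genes and fell without them. That direction was also the common one among all calls, since 82.3% of the changes with Tet genes were rises and 30.0% of those without were.

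A response was assigned to 1 background where the gene was changed there, its other effect was under 0.5 either way, and the test of the difference between both effects also passed. By this rule 193 genes (1.21%) responded with Tet genes only, 152 of them upwards (0.952%), and 336 (2.10%) responded without Tet genes only, 258 of them downwards (1.62%). Another 459 genes were changed in 1 background but could not be assigned, since the other effect was 0.5 or more or the difference did not pass. The difference, taken as the effect without minus the effect with Tet genes, passed for 1292 genes (8.09%), upwards for 323 (2.02%) and downwards for 969 (6.07%). Over all 15967 genes the effects had a Pearson correlation of -0.0040 and a Spearman correlation of 0.040, and over the 1049 genes changed in either background these were 0.089 and 0.14. These correlations run across genes, which are not independent replicates, and the 2 effects share no sample. With an adjusted p under 0.05 alone and no limit on size, 41.5% of the tested genes passed with Tet genes, 38.8% without and 41.6% for the difference. Median effects were 0.0016 with Tet genes and -0.0087 without.

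**Figure D1:**
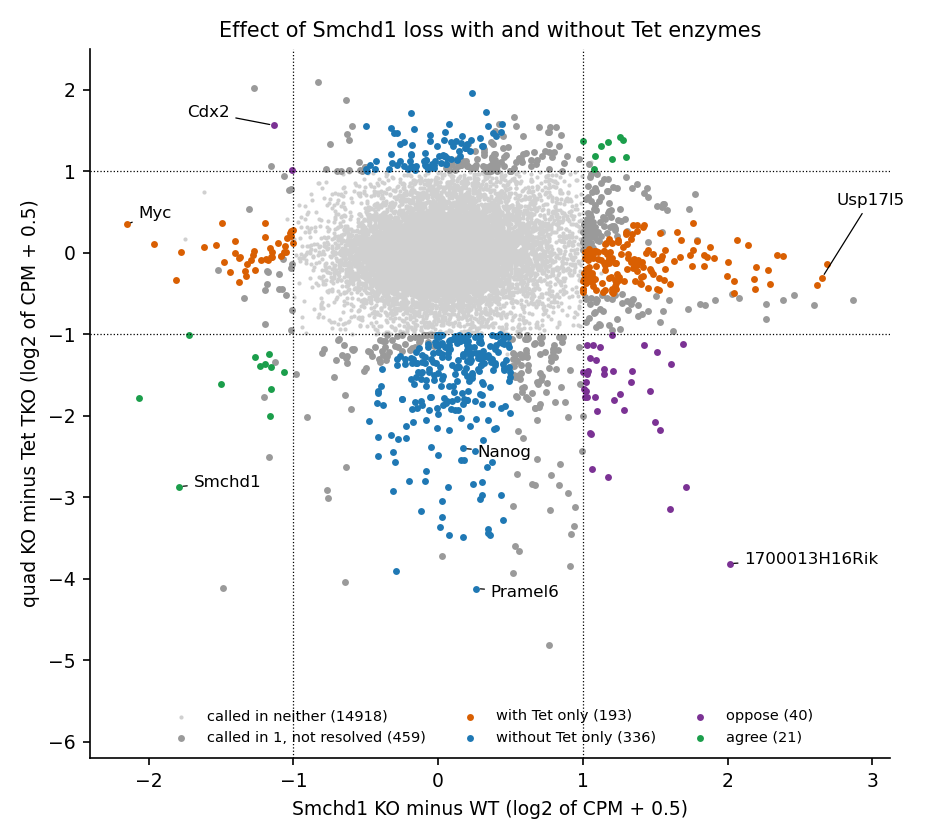
Each point is 1 of the tested genes, with the Smchd1 KO minus WT difference on the x axis and the quad KO minus Tet TKO difference on the y axis, both in log2(CPM + 0.5), and dotted lines at 1 and -1. Genes of the with-Tet class lie to the right and left near 0 on the y axis, the 258 that fell only without Tet genes form the column below, and 38 of the 40 opposing genes lie at the lower right.

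The calls with Tet genes depend on which samples set the spread. When the more variable Dux KO and Double KO samples of the same table entered the fit, 109 genes in place of 434 were changed with Tet genes, and 3 in place of 21 agreed and 3 in place of 40 opposed. Smchd1 KO replicates differed from each other by 2.94 to 10.2 times the variance that counting gives and quad KO replicates by 3.34 to 8.97 times, against 1.26 to 2.46 in WT and 1.41 to 1.69 in Tet TKO. WT and Tet TKO replicates thus varied about as little as 2 runs of a single WT sample (2.00 to 2.29), so the p-values may reflect in part a technical spread. Depth ran from 11399770 to 74448358 gene reads per library. Levels were not compared between the tables of the 2 backgrounds, which were scaled separately. In bulk RNA, fewer cells that express a gene and less RNA per cell cannot be told apart.

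Smchd1 itself was checked first. It read 207, 203 and 207 CPM in WT against 46.2, 76.5 and 58.5 CPM in Smchd1 KO. In the Tet background it read 151, 152 and 161 CPM in Tet TKO and 18.1, 12.2 and 40.02 CPM in quad KO. The groups did not overlap in either background, and transcript remained in every knockout sample. The fall was -1.79 ± 0.31 (standard error, SE) with Tet genes and -2.87 ± 0.31 without, and the difference between them did not pass (adjusted p = 0.067). Tet1 averaged 272 CPM in Tet TKO against 289 CPM in quad KO, Tet2 averaged 337 and 235 CPM, and Tet3 averaged 44.4 and 45.3 CPM, so Tet transcripts were still read in both groups. Tet2 was lower in quad KO by a difference of -0.52 ± 0.06 (adjusted p = 7.0e-05), under the size limit.

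Promoter sequences are shown for 7 genes so that the CpG content of members described below can be read directly. The 4 first genes are the germline genes of the opposing class, Usp17l5 rose only with Tet genes, and Xlr5a and Pramel6 fell only without them. Each run is the 200 bases before the start of the gene, 5′ to 3′, from RefSeq's GRCm38.p6 promoters, with every CpG in capitals. The run labelled Usp17l5 is that of the gene named Usp17lc in RefSeq.
Smc1b, chr15:85131958-85132157, minus strand: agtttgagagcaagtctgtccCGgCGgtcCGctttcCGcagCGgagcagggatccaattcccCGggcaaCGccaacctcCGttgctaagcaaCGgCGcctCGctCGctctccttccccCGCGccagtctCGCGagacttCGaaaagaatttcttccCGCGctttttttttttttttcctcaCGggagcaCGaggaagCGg
Dazl, chr17:50293621-50293820, minus strand: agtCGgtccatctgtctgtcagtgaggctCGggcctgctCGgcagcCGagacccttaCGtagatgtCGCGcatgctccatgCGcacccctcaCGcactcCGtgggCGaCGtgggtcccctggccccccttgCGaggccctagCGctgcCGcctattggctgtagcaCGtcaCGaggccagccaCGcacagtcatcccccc
Sohlh2, chr3:55181844-55182043, plus strand: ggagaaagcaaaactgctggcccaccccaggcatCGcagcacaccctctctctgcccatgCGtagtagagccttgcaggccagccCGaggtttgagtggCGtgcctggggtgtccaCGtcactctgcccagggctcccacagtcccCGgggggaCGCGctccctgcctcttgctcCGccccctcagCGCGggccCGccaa
Tuba3b, chr6:145615763-145615962, plus strand: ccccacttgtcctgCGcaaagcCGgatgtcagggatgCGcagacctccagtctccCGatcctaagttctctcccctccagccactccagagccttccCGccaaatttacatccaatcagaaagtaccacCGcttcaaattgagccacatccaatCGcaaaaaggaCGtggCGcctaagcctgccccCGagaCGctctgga
Usp17l5, chr7:103416496-103416695, plus strand: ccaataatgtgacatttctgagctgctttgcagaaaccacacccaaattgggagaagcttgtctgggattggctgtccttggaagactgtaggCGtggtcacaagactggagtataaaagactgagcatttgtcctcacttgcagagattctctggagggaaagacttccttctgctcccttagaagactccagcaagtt
Xlr5a, chrX:73117703-73117902, minus strand: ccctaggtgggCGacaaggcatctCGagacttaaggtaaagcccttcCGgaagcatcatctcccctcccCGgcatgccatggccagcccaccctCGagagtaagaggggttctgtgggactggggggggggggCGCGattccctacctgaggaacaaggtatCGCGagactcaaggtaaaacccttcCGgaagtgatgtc
Pramel6, chr2:87506365-87506564, plus strand: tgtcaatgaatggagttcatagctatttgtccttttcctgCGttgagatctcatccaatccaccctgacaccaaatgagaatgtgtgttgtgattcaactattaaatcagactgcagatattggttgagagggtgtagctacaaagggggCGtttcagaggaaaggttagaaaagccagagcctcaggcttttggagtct
The runs hold 22, 18, 12 and 11 CpGs in Smc1b, Dazl, Sohlh2 and Tuba3b, 1 in Usp17l5, 10 in Xlr5a and 2 in Pramel6. In the 300 bases from 250 before to 50 after the start, the 44 germline genes found in RefSeq of 48 tested had a median of 17.5 CpGs. The median was 7 for 13 of the 15 Xlr and Rhox genes and 7 over all 27025 genes of that RefSeq table. The motif CACGTG, which reads the same on both strands, was in 18 of the 44 germline windows (40.9%), in none of the 13 Xlr and Rhox windows and in 7.24% of all 27025. Of all tested genes 73.8% had an entry, and no such values are given for them or for the 2-cell list and the opposing and 1-background classes, of which under 80% had an entry. Other sets had at least 80% found. Of the 21 genes that agreed, 17 were found, with a median of 12 CpGs and the motif in 6 (35.3%). Medians and motif shares were 25 and 14.3% for DNA methylation factors and 16 and 11.3% for imprinted genes. For core histone genes they were 11 and 1.67%, and for interferon genes 7 and 0%. The motif was in none of the 7 runs printed above. No test of CpG content was run. A match of letters is a description and not a bound site.

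Germline genes, among them meiotic and germ cell regulators, rose in part with Tet genes and fell in part without. Of 48 tested, 8 rose and 1 fell with Tet genes, while 1 rose and 15 fell without them, with medians of 0.45 and -0.52. These are 16.7% risen with Tet genes, against 2.24% of all genes, and 31.2% fallen without, against 2.96%. The single fall with Tet genes is 2.08%, against 0.482%, and the single rise without is 2.08%, against 1.27%. Positive effects were seen in 42 of 48 with Tet genes, and negative effects in 33 of 48 without, against 50.2% and 51.4% of all tested genes. The difference passed downwards for 20 members. Smc1b, Dazl, Sohlh2 and Tuba3b were in the opposing class, and Boll, an RNA-binding protein of the DAZ family, rose in both. The summed level of the list was 928 to 955 CPM in WT against 1185 to 1381 CPM in Smchd1 KO, and 910 to 932 CPM in Tet TKO against 694 to 759 CPM in quad KO. Neither pair of groups overlapped.

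Smc1b, the meiotic cohesin subunit, read 51.5, 52.8 and 49.5 CPM in WT against 119, 106 and 125 CPM in Smchd1 KO, and then 19.9, 22.7 and 24.8 CPM in Tet TKO and 3.44, 1.80 and 3.77 CPM in quad KO. Every Smchd1 KO sample lay above WT and every quad KO sample below Tet TKO. It rose by 1.17 ± 0.18 with Tet genes (adjusted p = 0.00035) and fell by 2.76 ± 0.18 without (adjusted p = 9.2e-07). Dazl, an RNA-binding protein needed for germ cell development, was chosen after its values were seen. Its samples read 12.4, 14.1 and 13.9 CPM in WT against 36.8, 32.4 and 21.1 CPM in Smchd1 KO, 28.7, 26.7 and 26.2 CPM in Tet TKO and 14.2, 8.48 and 9.87 CPM in quad KO. Neither pair of groups overlapped, and the effects were 1.09 ± 0.20 and -1.32 ± 0.20.

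Sohlh2, a transcription factor of early germ cells that was also chosen after its values were seen, read 17.9, 18.7 and 18.6 CPM in WT against 46.6, 45.6 and 30.1 CPM in Smchd1 KO. Without Tet genes it read 16.7, 16.9 and 15.5 CPM in Tet TKO and 4.04, 2.58 and 5.53 CPM in quad KO. Again the groups were apart in both backgrounds, with effects of 1.10 and -1.94. Larger falls without Tet genes belonged to genes whose rise with them stayed under the limit. Hormad2, a meiotic chromosome axis protein, went from 11.6, 10.9 and 10.7 CPM in Tet TKO to 1.37, 0.389 and 0.897 CPM in quad KO, a fall of 3.12 ± 0.21, and its effect with Tet genes was 0.95 ± 0.21. Fkbp6, needed for transposon silencing in the male germline, went from 15.6, 15.8 and 15.97 CPM to 1.17, 0.0707 and 1.72 CPM, a fall of 3.66 ± 0.37. With Tet genes its effect was 0.56 ± 0.37 (adjusted p = 0.25), and Smchd1 KO replicate 3, at 9.47 CPM, lay close to the highest WT sample at 8.90 CPM.

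Rises of germline genes with Tet genes were sensitive to the spread used. With Dux KO and Double KO in the fit, 1 of 48 in place of 8 rose (Smc1b then had an adjusted p of 0.19), while 15 fell without Tet genes as before. Counts without Smchd1 KO replicate 2 were 10 risen and 1 fallen with Tet genes, and without quad KO replicate 3 they were 2 risen and 15 fallen without Tet genes.

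Opposing genes outside the germline list included those with the largest effects. Genes named below by size from each class had to have replicates that do not overlap in each called effect. Their separation was therefore fixed by the choice and is no support. 1700013H16Rik, an X-linked gene, read 0.533, 0.772 and 0.636 CPM in WT against 6.33, 3.71 and 2.93 CPM in Smchd1 KO, 8.04, 9.51 and 9.69 CPM in Tet TKO and 0.100, 0.106 and 0.359 CPM in quad KO. Both pairs of groups were fully apart, and the effects were 2.01 ± 0.22 and -3.81 ± 0.22. Rpl39l, a testis-expressed paralog of the ribosomal protein gene Rpl39, read 9.70, 9.07 and 7.65 CPM in WT against 28.9, 47.2 and 15.5 CPM in Smchd1 KO. Without Tet genes it read 8.28, 10.2 and 9.40 CPM in Tet TKO and 0.936, 0.318 and 0.646 CPM in quad KO, so that effects of 1.61 and -3.14 had opposite signs. Smchd1 KO samples differed widely among themselves, and all lay above WT.

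2410076I21Rik had effects of 1.71 and -2.88, and Txlnb, a member of the taxilin family, had effects of 1.54 and -2.18. Msln, which encodes the cell surface protein mesothelin, had 1.496 and -2.08. Hnf4a, a nuclear receptor of endoderm and liver, read 2.28, 2.12 and 2.16 CPM in WT against 5.93, 7.70 and 7.23 CPM in Smchd1 KO, and 1.19, 1.52 and 1.19 CPM in Tet TKO and 0.134, 0 and 0.0359 CPM in quad KO. The groups were apart in both, with effects of 1.46 ± 0.13 and -1.69 ± 0.13. With Dux KO and Double KO in the fit the rises with Tet genes no longer passed for 2410076I21Rik (adjusted p = 0.080), Txlnb (0.22), Msln (0.20) and Rpl39l (0.34).

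In the reverse direction, Cdx2 and Cysltr1 fell with Tet genes and rose without. Cdx2, the homeobox factor of trophectoderm, read 0.994, 0.791 and 1.31 CPM in WT against 0.190, 0.290 and 0.104 CPM in Smchd1 KO, and 7.73, 7.26 and 8.04 CPM in Tet TKO and 26.1, 29.4 and 17.3 CPM in quad KO. Its groups were apart in both, with effects of -1.13 ± 0.19 and 1.57 ± 0.19. Cysltr1, a leukotriene receptor, had effects of -1.01 and 1.01, at the size limit, and its call with Tet genes was lost without WT replicate 3 (-0.93) or Smchd1 KO replicate 1 (-0.84). Without Tet TKO replicate 3 or quad KO replicate 2 its other effect was 0.97 or 0.93. With Dux KO and Double KO in the fit the falls with Tet genes did not pass for Cdx2 (adjusted p = 0.36) or Cysltr1 (0.29).

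**Figure D2:**
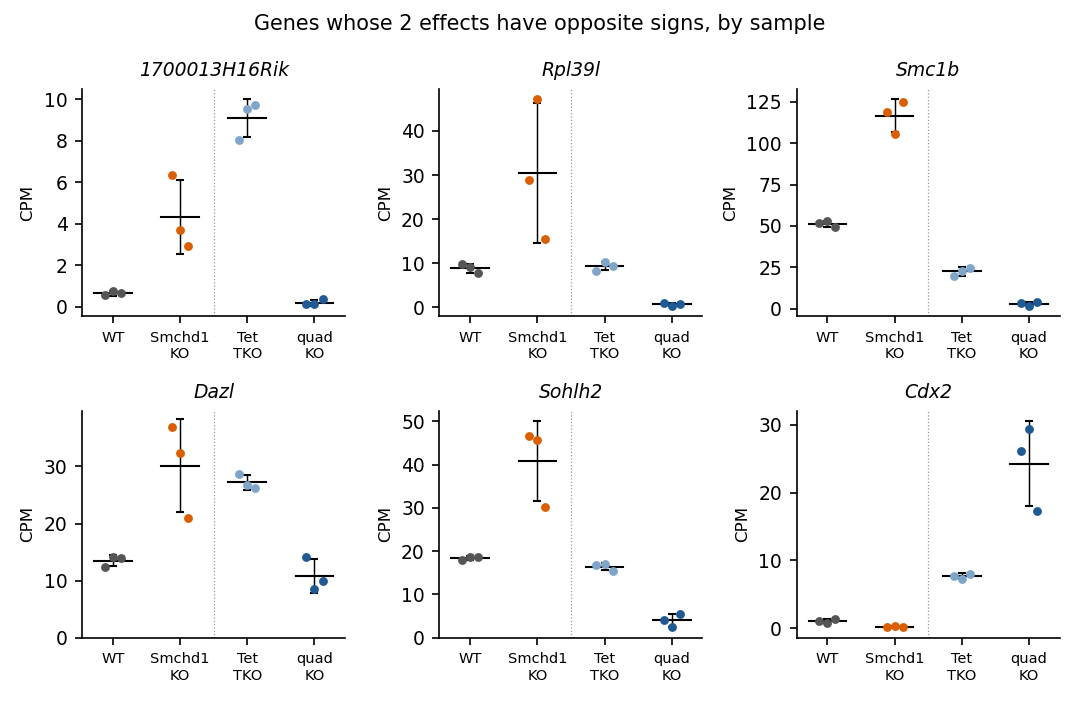
CPM of 6 opposing genes in each of the 12 samples (points), with the group mean (line) and SD (bars, n = 3), and a dotted line between the 2 separately scaled tables. In the 5 first panels Smchd1 KO lies above WT and quad KO below Tet TKO, and Cdx2 shows the reverse.

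Agreement was rare and mixed in function. Apart from Smchd1, 9 genes rose and 11 fell in both backgrounds, and for none did the difference between the effects pass. Tril, an accessory protein of Toll-like receptors, read 5.10, 4.58 and 4.58 CPM in WT against 0.649, 0.805 and 0.811 CPM in Smchd1 KO, and 7.50, 7.36 and 7.32 CPM in Tet TKO and 2.34, 1.70 and 1.44 CPM in quad KO. All knockout samples lay below their controls, and the effects were -2.07 ± 0.13 and -1.78 ± 0.13. Meox1, a mesoderm homeobox gene, had effects of -1.50 and -1.61, and Mras, a small GTPase, had -1.23 and -1.39.

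Among the shared risers, Boll read 1.22, 1.17 and 1.30 CPM in WT against 3.09, 4.26 and 4.01 CPM in Smchd1 KO, 2.17, 1.87 and 1.91 CPM in Tet TKO and 5.48, 5.09 and 4.81 CPM in quad KO. Its groups did not overlap, and the effects of 1.30 ± 0.12 and 1.18 ± 0.12 were close in size. Cd44, a hyaluronan receptor, had 1.20 and 1.15. Arhgap6, a GTPase-activating protein, had 1.28 and 1.39, and Col12a1, a collagen, had 1.18 and 1.36. The call with Tet genes was lost for Col12a1 (0.84) without Smchd1 KO replicate 2, and for Arhgap6 (0.87) without replicate 3. Tmprss13, a membrane serine protease, had 1.25 and 1.42, and the second was 0.99 without quad KO replicate 2.

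Imprinted Plagl1, a zinc finger gene, read 1.01, 3.57 and 0.505 CPM in Smchd1 KO against 3.61 to 3.80 CPM in WT, so that replicate 2 lay close to WT. Its effects were -1.19 and -1.37, and that with Tet genes did not pass without Smchd1 KO replicate 1 (-1.05, adjusted p = 0.063) or replicate 3 (-0.76, adjusted p = 0.059). Atp1a4, a sodium pump subunit of sperm, had -1.26 and -1.28, and Bmp4, a signalling ligand, had -1.16 and -1.67. Without Smchd1 KO replicate 2 their effects with Tet genes were -0.76 and -0.76. With Dux KO and Double KO in the fit, Boll (adjusted p = 0.11), Cd44 (0.32), Mras (0.11), Arhgap6 (0.41), Col12a1 (0.38), Tmprss13 (0.056), Atp1a4 (0.27), Bmp4 (0.26) and Plagl1 (0.43) no longer passed with Tet genes.

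Genes of the 2-cell embryo rose with Tet genes and not without. Of 48 entries 33 were tested. With Tet genes 31 rose (93.9%, against 2.24% of all genes) and none fell, with a median of 1.90. Of the 33, 5 passed the filter only through Smchd1 KO, where they were high, so their rise is no support, and of the other 28, 26 rose. Without Tet genes none rose, against 1.27% of all genes, and the median was -0.18. There 1, Usp26, fell (3.03%), which is near the 2.96% of all genes. The test of the difference passed for 31 members, and 23 met the full rule for a response with Tet genes only. Those 5 are in both counts and in the medians, so these values are no support on their own. The summed level of all 33, the 5 included, was 40.2 to 43.0 CPM in WT against 135 to 268 CPM in Smchd1 KO. In the other background it was 116 to 121 CPM in Tet TKO and 98.5, 52.0 and 139 CPM in quad KO, which lay on both sides of Tet TKO. The median without Tet genes was 0.14 without quad KO replicate 2 and -0.48 without replicate 3, so its sign rested on 1 library. With Dux KO and Double KO in the fit 29 of 33, a list that includes those 5, still rose with Tet genes.

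Usp17l5, of the Usp17 deubiquitinase family, read 1.02, 0.943 and 0.841 CPM in WT against 10.3, 10.5 and 5.63 CPM in Smchd1 KO. In Tet TKO it read 4.14, 3.53 and 3.07 CPM and in quad KO 3.21, 1.13 and 5.31 CPM. Groups were apart with Tet genes and overlapped without, and the effects were 2.65 ± 0.36 and -0.31 ± 0.36 (adjusted p = 0.53). The difference between them was -2.96 (adjusted p = 0.00082). BB287469, a gene of the multi-copy Eif1a-like group, had effects of 2.62 and -0.39, and Gm8994 had 2.69 and -0.13. Zscan4e, of the Zscan4 zinc finger cluster, had 2.19 and -0.44, its pseudogene copy Zscan4-ps2 had 2.04 and -0.50, and Gm6189 had 2.29 and -0.39. Usp17l5 shared 44.7% of its 50-base words with other genes in GENCODE vM21, so its value as a single copy is uncertain. Sharing was not measured for BB287469, Gm8994, Zscan4e and Zscan4-ps2, and values of single copies in such multi-copy groups may include reads of other copies. The entries named Dux and Gm10807 were under the filter in this comparison and were not tested.

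Genes that fell only with Tet genes included regulators of ES cells. Myc, a transcription factor of growth, read 85.3, 74.9 and 83.9 CPM in WT against 20.9, 12.5 and 21.9 CPM in Smchd1 KO, and 154, 154 and 151 CPM in Tet TKO and 185, 190 and 209 CPM in quad KO. It lay below WT in all Smchd1 KO samples and above Tet TKO in all quad KO samples, with effects of -2.15 ± 0.16 and 0.35 ± 0.16. Gbx2, a homeobox gene of the LIF response, read 87.1, 76.8 and 84.5 CPM in WT against 25.4, 22.0 and 24.2 CPM in Smchd1 KO. In Tet TKO it read 117, 120 and 118 CPM and in quad KO 119, 124 and 115 CPM, with effects of -1.77 and 0.01. Spna1, the alpha spectrin of red cells, had -1.97 and 0.11, and Cntfr, the receptor of ciliary neurotrophic factor, had -1.62 and 0.07. Ankrd34a, an ankyrin repeat gene, had -1.54 and 0.09, and Slc7a7, an amino acid transporter, had -1.49 and 0.36. With Dux KO and Double KO in the fit, Myc (adjusted p = 0.14), Gbx2 (0.077) and Slc7a7 (0.15) no longer passed.

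The X-linked Xlr and Rhox families, multi-copy clusters expressed in germ cells and placenta, fell without Tet genes. Of 44 entries 15 were tested, of which 14 fell without Tet genes (93.3%, against 2.96% of all genes). None changed with Tet genes, but only 2.72% of all genes did, so few or none of 15 would be expected to. The medians were -2.73 without and 0.30 with Tet genes. The rule for a response without Tet genes only was met by 11, all downwards, against 1.62% of all genes. Of the 15, 9 passed the filter only through Tet TKO, the group they fell from, so their fall is no support, and of the other 6, 5 fell. The summed level of the 15 was 66.7 to 71.3 CPM in Tet TKO against 2.55 to 3.73 CPM in quad KO. In the other table it was 14.3 to 14.7 CPM in WT against 13.2 to 28.4 CPM in Smchd1 KO, which overlapped. These sums and the medians include those 9, Xlr5a among them, and most of the 9 are among the 11. None of these values is therefore support on its own. Xlr5a, of a lymphocyte-regulated family related to Sycp3, read 5.73, 4.56 and 5.35 CPM in Tet TKO and 0.0334, 0 and 0.0359 CPM in quad KO. In WT it read 0.0819 to 0.113 CPM, and in Smchd1 KO 0.138, 0.752 and 0.0572 CPM. Xlr3a, at 17.8 to 19.4 CPM in Tet TKO against 0.0707 to 0.334 CPM in quad KO, had the lowest effect of the list, -4.82 ± 0.36.

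Low levels in WT limit what these families can show. A fall beyond 1 on this scale cannot appear where WT is at or under 0.5 CPM, which held for 43 of the 258 genes that fell only without Tet genes, Xlr5a, Xlr4a and Xlr3c among them, while 215 had higher WT means. Of the list, Rhox6, a reproductive homeobox gene, averaged 3.29 CPM in WT against 2.80 CPM in Smchd1 KO, and 6.91 and 0.569 CPM in Tet TKO and quad KO. Xlr5a shared 84.2%, Xlr3c 72.0% and Xlr3a 44.8% of their 50-base words with other genes, so single copies are uncertain.

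Pramel6, of the PRAME-like family of the early embryo, had the most negative effect of the genes that responded without Tet genes only. It read 9.29, 8.95 and 8.80 CPM in Tet TKO and 0.0334, 0.0353 and 0.0718 CPM in quad KO, while WT read 0.0225 to 0.0801 CPM and Smchd1 KO 0.0572 to 0.247 CPM. The groups without Tet genes were fully apart, with an effect of -4.12 ± 0.12, and WT left no room for a fall. D14Ertd668e, named Phf11d in RefSeq, did have such room. It read 28.5, 29.2 and 28.04 CPM in WT against 36.5, 52.2 and 26.02 CPM in Smchd1 KO, and 27.3, 28.5 and 27.4 CPM in Tet TKO and 1.80, 2.26 and 2.15 CPM in quad KO. Smchd1 KO overlapped WT and quad KO lay far below Tet TKO, with effects of 0.36 and -3.46 ± 0.18. X-linked Gm9 had effects of 0.35 and -3.39, but its WT mean of 0.292 CPM again left no room for a fall. Pramel6 and Gm9 passed the filter only through Tet TKO, where they were high, so their falls are no support.

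Pluripotency genes fell mainly without Tet genes. Of 30 tested, 10 fell without Tet genes and none rose, and 1, Gbx2, fell with them, with medians of -0.41 without and -0.21 with Tet genes. The 10 are 33.3% of the list, against 2.96% of all genes. Gbx2 alone is 3.33%, against 0.482%. Of the 10, 8 met the rule for a response without Tet genes only. Nanog, a core factor of the naive state, read 395, 412 and 397 CPM in WT against 488, 508 and 373 CPM in Smchd1 KO, and 252, 276 and 268 CPM in Tet TKO and 61.5, 65.0 and 30.8 CPM in quad KO. The groups overlapped with Tet genes and were apart without, with effects of 0.17 ± 0.22 and -2.40 ± 0.22. Tbx3, a T-box factor, had -0.22 and -2.27, Prdm14, a regulator of the naive and germline programs, had 0.07 and -2.18, and Esrrb, an orphan nuclear receptor, had -0.18 and -1.92. Of the core factors, named after their values were seen, Pou5f1 had -0.06 without Tet genes (adjusted p = 0.41) and Sox2 had -0.48 (adjusted p = 0.0018), under the size limit.

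**Figure D3:**
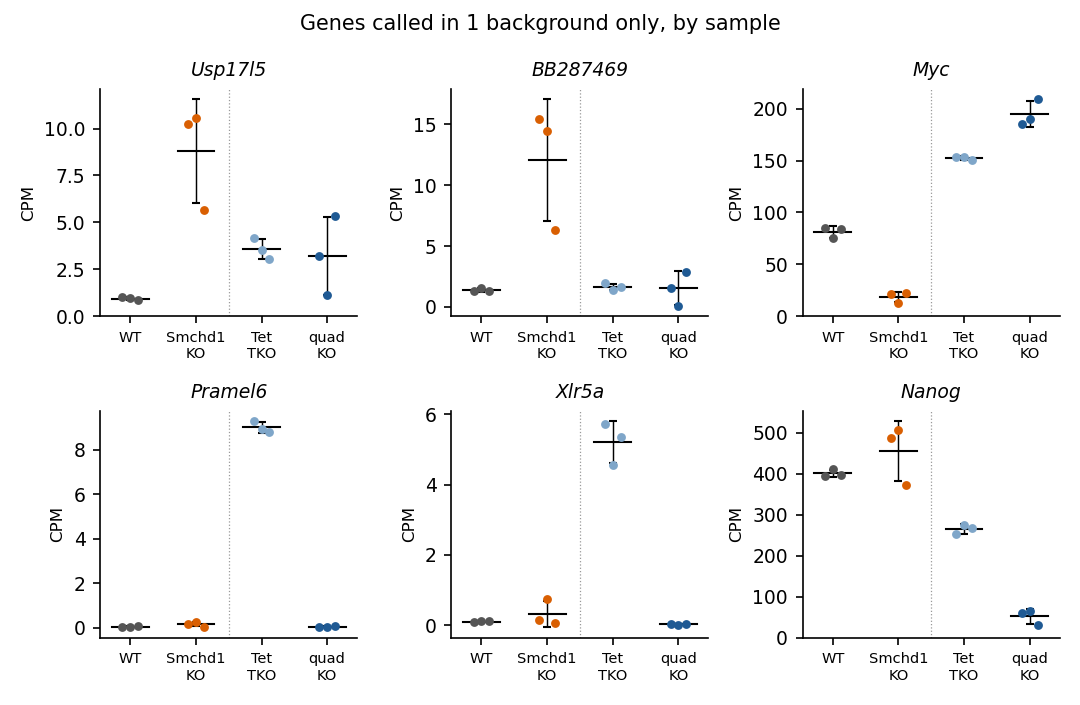
CPM of 6 genes assigned to 1 background in each sample (points), with group mean (line) and SD (bars, n = 3), and a dotted line between separately scaled tables. Usp17l5 and BB287469 are high only in Smchd1 KO relative to WT, Myc is low there, and Pramel6, Xlr5a and Nanog are lower in quad KO than in Tet TKO.

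Among the 78 genes that rose only without Tet genes, Mal had the largest effect. Mal, a myelin and lymphocyte membrane protein, read 0.814, 1.18 and 1.16 CPM in Tet TKO and 5.81, 7.25 and 3.91 CPM in quad KO, with effects of 0.23 and 1.96 ± 0.19. Mef2c, a muscle and neural transcription factor, had -0.19 and 1.72, and Tal1, a blood lineage factor, had -0.28 and 1.47. Gm16233, Fam38b (now Piezo2) and Fras1, an extracellular matrix gene, had 1.55, 1.53 and 1.48 without Tet genes and -0.50, -0.33 and -0.30 with them. The choice of these 6 genes required quad KO samples that do not overlap Tet TKO, so their separation is no support. Mef2c, at 0.484 to 0.746 CPM in Tet TKO, passed the filter only through quad KO. Its rise is thus no support.

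Imprinted genes gave 3 falls and no rise with Tet genes, and 12 falls and 2 rises without, of 65 tested. The falls are 4.62% of the list with Tet genes, against 0.482% of all genes, and 18.5% without, against 2.96%, and the rises without are 3.08%, against 1.27%. Noncoding RNAs of the Meg3 locus varied widely between quad KO samples. Meg3 read 80.8, 76.8 and 75.7 CPM in Tet TKO and 44.4, 0.460 and 7.36 CPM in quad KO, and Rian read 190 to 193 CPM in Tet TKO and 103, 1.10 and 17.98 CPM in quad KO. Both were lowest in quad KO replicate 2 and highest in replicate 1, and WT at 141 to 152 CPM and Smchd1 KO at 145 to 185 CPM overlapped for Meg3. With each table fitted alone, the falls of Meg3 (adjusted p = 0.053) and Rian (0.056) without Tet genes did not pass. H19 read 262 to 281 CPM in Tet TKO and 10.7, 2.19 and 131 CPM in quad KO, with effects of -1.49 (adjusted p = 0.24) and -4.11 (adjusted p = 0.0052). The difference for Meg3, -3.66 (adjusted p = 0.041), did not pass without any 1 of the WT, Smchd1 KO or Tet TKO replicates or without quad KO replicate 3 (-3.58 to -3.76, adjusted p = 0.051 to 0.075). Of 2 imprinted genes named after their values were seen, Zdbf2 averaged 345 CPM in WT against 129 CPM in Smchd1 KO, and 275 and 234 CPM in the 2 groups without Tet genes, and responded with Tet genes only. Mest fell in both, with effects of -1.06 and -1.47.

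**Figure D4:**
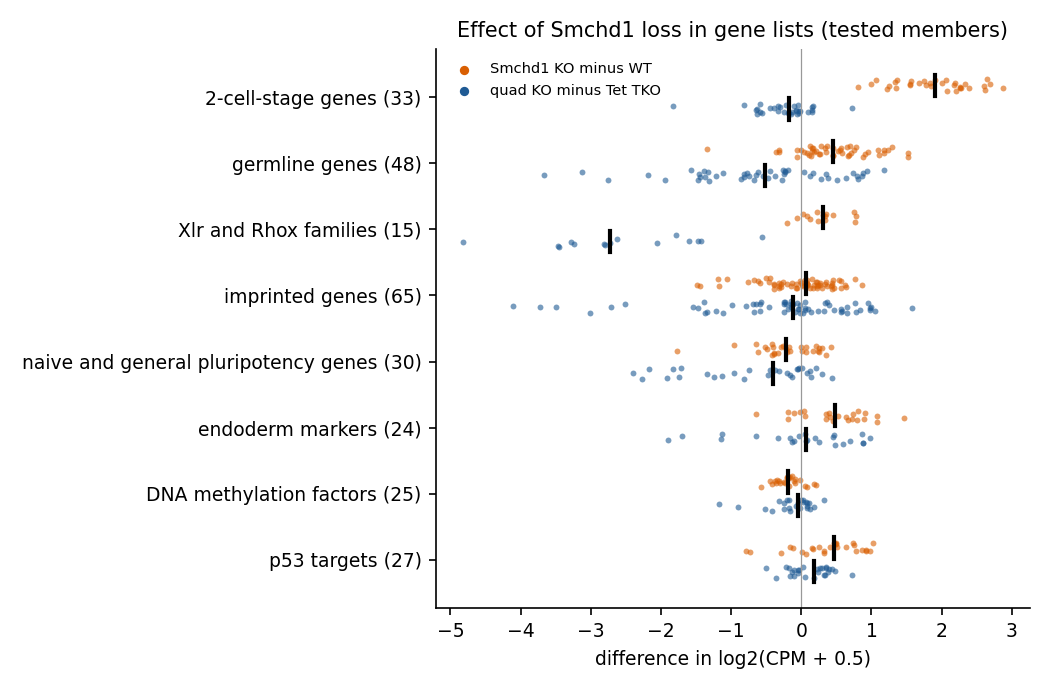
Each point is a tested member of a list (number in brackets), with the Smchd1 KO minus WT difference in orange and the quad KO minus Tet TKO difference in blue, in log2(CPM + 0.5), and a black bar at each median. The medians lie at 1.90 and -0.18 for 2-cell-stage genes, 0.45 and -0.52 for germline genes and 0.30 and -2.73 for the Xlr and Rhox families. They include 5 2-cell genes that passed the filter only through Smchd1 KO and 9 Xlr and Rhox genes that passed only through Tet TKO.

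Other lists gave few changes. Of 25 DNA methylation factors none changed with Tet genes, and Dnmt3a, a de novo methyltransferase, alone fell without, from 385 to 391 CPM in Tet TKO to 217, 123.1 and 190 CPM in quad KO. That is 4% of the list, against 2.96% of all genes. Its effect was -1.18 ± 0.17, and -0.94 without quad KO replicate 2. Of 27 p53 targets 1 (3.7%, against 2.24% of all genes) rose with Tet genes and none changed without, with medians of 0.47 and 0.18, and the count with Tet genes was 3 without Smchd1 KO replicate 2 and 0 without replicate 3. Of 27 interferon genes 1 rose with Tet genes (3.7%, and 0 without Smchd1 KO replicate 2 and 2 without replicate 3) and 4 fell without (14.8%, against 2.96%), of which Xaf1, a pro-apoptotic factor, had effects of 0.65 and -1.72. Of 69 core histone genes, whose RNAs mostly lack a poly(A) tail, 4 fell with Tet genes (5.8%, against 0.482%), while 1 rose and 1 fell without (1.45% each). Hist2h2ac read 71.1 to 77.5 CPM in WT against 29.7 to 31.4 CPM in Smchd1 KO, but 173 to 194 CPM in Tet TKO against 177 to 199 CPM in quad KO. Hox genes gave 2 falls with Tet genes (5, and 1 rise, without Smchd1 KO replicate 3) and 1 without, of 21 tested, which is 9.52% against 0.482% and 4.76% against 2.96%, and Hoxa3 had effects of -1.29 and -0.08. Primed pluripotency genes gave 1 fall with Tet genes (5.26%) and no change without, of 19. Neither of 2 protocadherins tested changed.

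Markers of other cell types moved with some samples. Endoderm markers summed to 2290 to 2353 CPM in WT against 3042, 2497 and 6946 CPM in Smchd1 KO, the last in replicate 3, and 3 of 24 rose (12.5%, against 2.24% of all genes). Without replicate 2, 8 rose, and without replicate 3, 1 rose and 2 fell. In the other table the sum was 1827 to 1876 CPM in Tet TKO against 1699 to 2159 CPM in quad KO, where 4 fell (16.7%, against 2.96%, and 2 without quad KO replicate 2). Lama1, a basement membrane laminin, read 280 to 296 CPM in WT against 367, 266 and 1005 CPM in Smchd1 KO, and 36.02 to 37.7 CPM in Tet TKO against 7.92 to 12.4 CPM in quad KO. Named for its large fall there, it does not stand for the list, whose median effect without Tet genes was 0.07, with 10 of 24 negative. Lamc1, the most abundant member, had effects of 0.35 and -0.34, neither passing. Trophoblast markers summed to 380 to 391 CPM in Tet TKO against 412 to 707 CPM in quad KO. Without Tet genes 4 of 18 rose (22.2%, against 1.27%) and 1 fell (5.56%, against 2.96%). There 1 rose without quad KO replicate 2 and 6 without replicate 3. With Tet genes the sums were 196 to 205 CPM in WT against 211 to 341 CPM in Smchd1 KO, and 1 fell (5.56%, against 0.482%). Of 17 mesoderm markers 3 fell with Tet genes (17.6%, against 0.482%). Without Tet genes 3 rose (17.6%, against 1.27%) and 2 fell (11.8%, against 2.96%). Cdx2 and Hand1, on both the mesoderm and the trophoblast list, are among the rises of each. The fall of Cdx2 with Tet genes is also counted in both. Of the 17, 2 passed the filter only through quad KO, and of the other 15, 2 rose there. Fibroblast markers gave 1 rise with Tet genes (6.25%, against 2.24%) and 4 without (25%, against 1.27%, and 2 without quad KO replicate 3), of 16. Neural markers gave 1 rise with Tet genes (6.25%) and 2 without (12.5%, against 1.27%, and 4 without quad KO replicate 2), also of 16. Of these 16, 3 passed the filter only through quad KO, and of the other 13, 1 rose without Tet genes. At most 1 member of any of these 5 lists was at 0 in a sample. The part of these cell types in the gene results was not tested.

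The X chromosome held many of the falls without Tet genes. Of its 605 tested genes, 65 fell without Tet genes (10.7%, against 2.96% of all genes) and 41 met the rule for a fall without Tet genes only (6.78%, against 1.62%), while 2.64% changed with Tet genes. The 65 include Gm9 and 9 Xlr and Rhox genes that passed the filter only through Tet TKO, and most of these are among the 41. Other X-linked genes that passed in this way were not counted. These shares are therefore no support on their own. On chromosome 6, 43 of 747 tested genes fell without Tet genes (5.76%, against 2.96%). There 22 met the rule for a fall without Tet genes only (2.95%, against 1.62%). Whole chromosomes were shifted in some samples. In quad KO the median gene of the X lay at -0.24, -0.21 and -0.21 against Tet TKO, that of chromosome 6 at -0.20, -0.26 and -0.26 and that of chromosome 8 at -0.18, -0.23 and -0.26. Chromosome 12 lay at -0.12 and -0.18 in quad KO replicates 1 and 2 and at 0.02 in replicate 3, and chromosome 6 lay at -0.46 in Smchd1 KO replicate 2. The Y, with only 6 tested genes, lay at -0.27, 1.31 and -2.12 in quad KO replicates 1, 2 and 3. In Smchd1 KO it lay at 0.41, 0.72 and 0.65 against WT. With the median of each chromosome in each sample set to 0, 433 genes changed with Tet genes and 688 without, and 14 of 15 Xlr and Rhox genes still fell without Tet genes. Of these 15, 9 passed the filter only through Tet TKO, so their fall is no support.

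**Figure D5:**
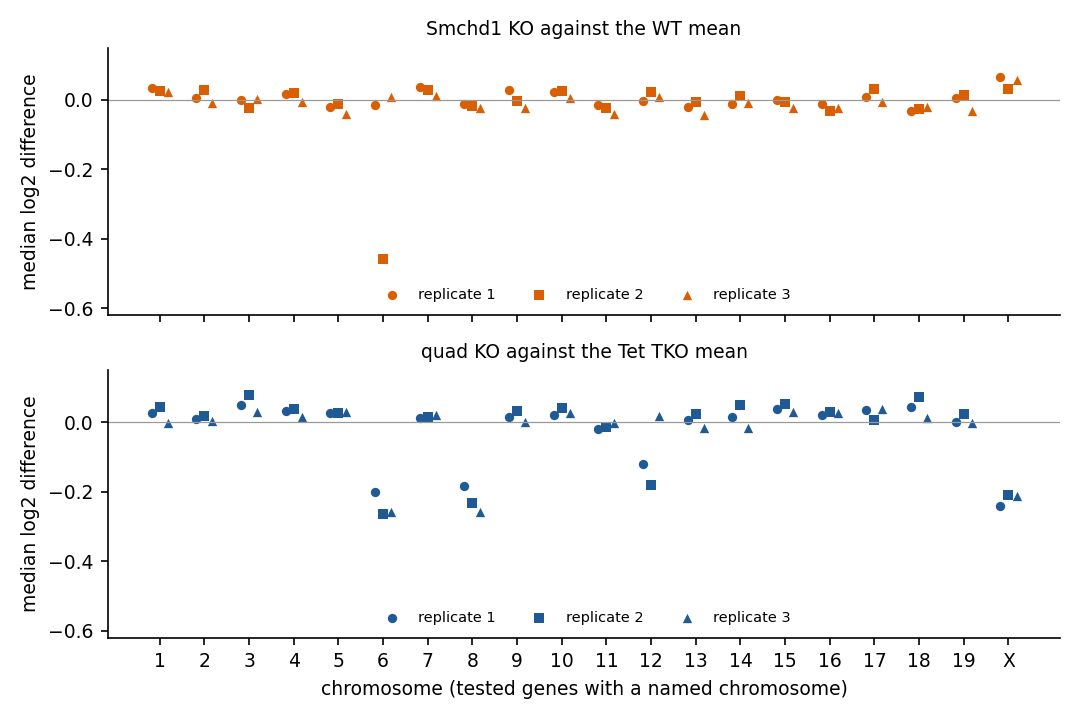
Median difference in log2(CPM + 0.5) of the tested genes of each chromosome except the Y, for each Smchd1 KO sample against the WT mean (upper panel) and each quad KO sample against the Tet TKO mean (lower panel). Chromosomes 6, 8 and X lie at -0.18 to -0.26 in all quad KO samples, and chromosome 6 lies at -0.46 in Smchd1 KO replicate 2.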

How the data were processed

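The deposited tables hold a normalized signal per gene, scaled by the authors and named CPM, in 2 tables scaled separately. Reads were handled with Trim Galore, STAR 2.5.1, mm9 and limma 3.38.2, per the submitters' processing notes; the counter, strand setting, annotation and filters are not given in the sources used here. Divided by the signal of 1 read, 100% of the values that come to fewer than 200 reads are whole to within 0.1 in every library. Smchd1 KO columns do not name their technical runs, so runs 1 and 4, 2 and 5, and 3 and 6 were averaged by the rule of the comparison. A further 3 value columns could not be matched to a sample and were not used.

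Log2(CPM + 0.5) of the 12 samples was fitted with limma 3.58.1 in R 4.3.3, with 1 mean per genotype and an intensity trend, and all p-values are two-sided and Benjamini-Hochberg adjusted over 15967 genes. Each effect is a difference within 1 table. Errors beside effects are SE. The fit was tested on simulated data. The edgeR 4.0.16 quasi-likelihood test on the recovered reads, added after seeing the data, gave 941 and 1265 changed genes. Members and lists were chosen with earlier results of these data known. Named genes are the 6 largest of each class and direction with non-overlapping replicates and at least 1 CPM in a group, up to 4 members of each list, the targeted genes and the most abundant marker of each cell type. Of these, 1 gene is not reported here. Chromosomes come from GENCODE vM21 by Ensembl ID, and no coordinates of the authors' build are used.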

Additional observations from a re-analysis of the deposited data

Results flagged for a closer look

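By the test of the difference between both effects, 1292 genes had an Smchd1 effect that differed between backgrounds. Each value that follows is the effect without Tet genes minus the effect with Tet genes, on the log2 scale, for genes named by the rule. Among opposing genes it was -5.83 for 1700013H16Rik, -4.75 for Rpl39l, -4.59 for 2410076I21Rik, -3.71 for Txlnb, -3.57 for Msln and -3.16 for Hnf4a, and 2.70 for Cdx2 and 2.02 for Cysltr1.

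Among genes that rose only with Tet genes it was -3.02 for BB287469, -2.96 for Usp17l5, -2.82 for Gm8994, -2.68 for Gm6189, -2.63 for Zscan4e and -2.54 for Zscan4-ps2. For those that fell only with Tet genes it was 2.501 for Myc, 2.08 for Spna1, 1.85 for Slc7a7, 1.79 for Gbx2, 1.69 for Cntfr and 1.63 for Ankrd34a.

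Among genes that fell only without Tet genes it was -4.38 for Pramel6, -3.82 for D14Ertd668e, -3.79 for Xlr5a, -3.73 for Gm9, -3.73 for Xlr3c and -3.66 for Meg3. For those that rose only without Tet genes it was 2.05 for Gm16233, 1.91 for Mef2c, 1.86 for Fam38b, 1.78 for Fras1, 1.75 for Tal1 and 1.73 for Mal. The difference for Meg3 was lost in 13 settings, leaving out any 1 of 10 single replicates among them.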

How the results depend on the processing

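With a pseudocount of 0.1, 722 genes changed with Tet genes and 1164 without, and 60 agreed and 104 opposed. With a pseudocount of 2 these counts were 148, 316, 6 and 13, the difference passed for 633, and 79 and 179 genes responded with and without Tet genes only. With all genotypes of each table in the fit, 109 genes changed with Tet genes, 3 agreed and 3 opposed. Quantile normalization left 25 opposing genes. It gave 68.3% of calls with Tet genes higher in place of 82.3%, and 41.4% of differences higher in place of 25%. The edgeR test, chosen after seeing the data, gave 941 and 1265 changed genes, 100 that agreed, 143 that opposed and a correlation of -0.066, and 43.7% of calls without Tet genes were higher in place of 30.0%. The cause of these shifts was not tested. Leaving out single replicates gave 394 to 490 changed genes with Tet genes, 656 to 739 without, 20 to 25 that agreed and 32 to 45 that opposed, and 25 of 170 results for named genes lost their call in at least 1 such setting. No named gene effect that passed changed its direction in these settings. Endoderm markers went from 3 rises and no fall with Tet genes to 1 rise and 2 falls without Smchd1 KO replicate 3, and the median of the 2-cell genes without Tet genes went from -0.18 to 0.14 without quad KO replicate 2. With the replicate number as a block, 437 and 676 genes changed, the difference passed for 1294, and 23 agreed and 41 opposed. The labels do not state a pairing, deviations of same-numbered samples correlated at -0.044 to 0.029, and 2 of 6 samples correlated best with their own number. Depth limits genes near 0.5 CPM, where few reads decide a value.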

Other observations

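Genes with at least 0.5 CPM in samples of 1 genotype only numbered 227 among those tested, 99 of them in Smchd1 KO, 68 in quad KO, 43 in Tet TKO and 17 in WT. Of these, 28 were changed in Smchd1 KO, 9 in quad KO, 24 in Tet TKO and 1 in WT, in the effect of their own background. Such genes passed the filter through the group where they were high.

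The effects in the other background were as follows. The 357 that rose with Tet genes had a median effect of -0.09 without them, and 204 of them had a negative one (57.1%, against 51.4% of all tested genes). The 77 that fell with Tet genes had a median effect of -0.08 without them, and 48 had a negative one (62.3%). The 473 that fell without Tet genes had a median effect of 0.20 with them, and 312 had a positive one (66.0%, against 50.2%). The 203 that rose without Tet genes also had a median effect of 0.20 with them, with 142 positive (70.0%).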
